A study of Bos taurus with 9 samples.

Results

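The regions described here are H3K9me3 peaks of rumen epithelial tissue that were called after weaning and had no counterpart before weaning. Members were chosen by the called positions alone. A peak was taken as gained when it shared no base with any H3K9me3 peak before weaning and no base with an RNA pol II peak of either time point, and when it lay outside positions 50000001 to 52000000 of chromosome 17, a window crowded with peaks of every mark. The H3K9me3 list before weaning was the shorter one, with 2410 peaks. Of the 4170 H3K9me3 peaks after weaning, 2918 (70.0%) touched no H3K9me3 peak before weaning. The chromosome 17 window took away 101 of these, and contact with RNA pol II took away a further 31. The remaining 2786 gained peaks were 66.8% of the list after weaning and 95.5% of the peaks that touched no older one. In the whole series there were 130580 peaks in 8 lists.

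The samples were chromatin immunoprecipitation sequencing (ChIP-seq) libraries of Holstein calves, collected before weaning, when milk is part of the diet, and after weaning. The targets were H3K9me3, H3K9ac, H3K27ac and RNA polymerase II (RNA pol II), with 1 library for each target and time point, and a single input library served as the control for all of them. The labels name no agent, genotype or age, and do not say how many calves contributed to a library. The 2 H3K9me3 libraries were sequenced on different lanes (lane 2 before weaning, lane 1 after), and the effects of lane and weaning on this mark cannot be told apart. For RNA pol II the labels place the shorter list (738 peaks) after weaning and the longer one (2056 peaks) before, while the study's text has the shorter list before weaning. The labels were followed, and the time points of RNA pol II counts below are uncertain for this reason. The choice of gained peaks used both lists alike and does not depend on it. The lists hold positions on the cattle assembly UMD3.1.1 and no peak height or read depth. A gained peak is therefore one that passed the caller's threshold after weaning and not before, which does not give the size of any change. With 1 library per group there is no replicate error and no test between time points. The 95% Wilson intervals given for shares cover only counting error, and peaks that neighbour each other are not independent. No gene annotation of this assembly was used here, so peaks could not be assigned to genes and the tissue could not be checked against marker genes.

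H3K9me3, trimethylation of lysine 9 of histone H3, is written by enzymes of the SUV39H and SETDB1 families and is bound by HP1 proteins, which compact the chromatin. It is known from the flanks of centromeres, from repeats and from clusters of zinc finger genes, and it can spread from a marked nucleosome to its neighbours. H3K9ac is acetylation of the same lysine, so a single histone tail cannot carry both. H3K9ac and H3K27ac mark active promoters and enhancers, and RNA pol II marks transcribed genes.

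The first question was whether gained peaks extended places that were already marked or stood alone. Gained peaks of both kinds were found. Of the 2786, 546 (19.6%, 95% CI 18.2 to 21.1) lay within 10 kb of an H3K9me3 peak before weaning, here called an older peak. At the other end, 1659 (59.5%, 57.7 to 61.4) lay more than 100 kb from any older peak. Over the whole H3K9me3 list after weaning, 45.9% of the peaks lay within 10 kb of an older peak, touching peaks included, and 40.1% more than 100 kb away. The rule removed the touching peaks, so these shares describe the list and are no contrast with the gained peaks. The share within 10 kb fell to 12.6% when gaps of up to 1 kb counted as touching, and a limit of 50 kb in place of 10 kb gave 34.5%.

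In finer steps, 222 gained peaks (7.97%) lay within 1 kb of an older peak and 324 (11.6%) between 1 and 10 kb. A further 574 (20.6%) lay between 10 and 100 kb, 786 (28.2%) between 100 kb and 1 Mb, and 873 (31.3%) more than 1 Mb away. The median distance over the chromosomes was 312 kb. The share of the genome that lay equally close to an older peak was much smaller at short range. It was 0.167% within 1 kb, 0.985% within 10 kb, 7.08% within 100 kb and 45.0% within 1 Mb. Thus 19.6% of the gained peaks lay in 0.985% of the genome, while 31.3% lay in the part of the genome more than 1 Mb from older peaks.

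Newly called acetylation peaks were compared when free of older H3K9me3 and outside the chromosome 17 window, with no clause on RNA pol II. This left 982 of 1185 gained H3K9ac peaks and 6835 of 7040 gained H3K27ac peaks. Among the 982 H3K9ac peaks, 1.32% (0.775 to 2.25) lay within 10 kb of an older H3K9me3 peak. Among the 6835 H3K27ac peaks it was 0.688% (0.518 to 0.913). Both shares were near the 0.985% of the genome at that distance, and neither interval reached that of the gained H3K9me3 peaks. They do not describe the gained acetylation that was left out, and of the lost H3K9me3 peaks 8.33% lay within 10 kb of a gained H3K9ac peak of the full list, against 0.798% of the genome. In the opposite direction, 1008 H3K9me3 peaks were lost after weaning under the clauses of the gained H3K9me3 peaks, that on RNA pol II included. Of these, 29.2% (26.4 to 32.05) lay within 10 kb of an H3K9me3 peak after weaning. The list after weaning is the longer one, and 1.87% of the genome lay within 10 kb of it.

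**Figure D1:**
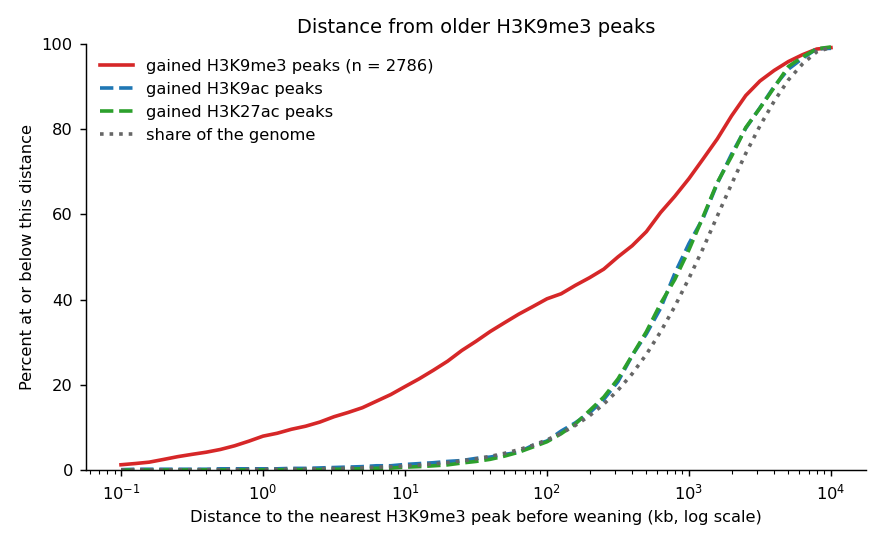
Cumulative percent of peaks (y axis) at or below a distance in kb (x axis, log scale) from the nearest H3K9me3 peak before weaning. The line of the 2786 gained H3K9me3 peaks reaches 19.6% at 10 kb, where the gained H3K9ac peaks, the gained H3K27ac peaks (both free of older H3K9me3) and the share of the genome lie between 0.688% and 1.32%, and at 1 Mb it is at 68.4%, against 53.2%, 51.7% and 45.0%.

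The edge of the rule was sharp for some peaks. The gained peak nearest to an older one was at chromosome 14, positions 21188842 to 21189222, with 12 bp between them. The next was at chromosome 1, positions 2350231 to 2350470, with 15 bp. The other 3 of the closest 5 had gaps of 26, 26 and 36 bp, and 2 of these were on chromosome 14 within 3 kb of the first. Just outside the rule, the peak at chromosome 25, positions 35519542 to 35520106, shared 5 bp with an older peak, and the next 4 shared 6, 7, 9 and 9 bp. A few bases of the called edges decided the class of these peaks.

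The older peaks beside gained ones were more often kept. Outside the chromosome 17 window there were 2015 older peaks, and 755 of them (37.5%) had a gained peak within 10 kb. Of these 755, 68.5% (65.1 to 71.7) were kept, that is, still touched by an H3K9me3 peak after weaning, whereas 34.6% (32.03 to 37.3) of the 1260 others were. Over all 2015 older peaks, 47.3% (45.1 to 49.5) were kept. The older peaks beside gained ones were also wider, with a median of 290 bp against 245 bp. Being kept and having a gained peak nearby were both read from the same list after weaning, and a wider older peak is touched more readily. The difference in the share kept is therefore not independent of either. Among the 546 gained peaks within 10 kb of an older peak, the nearest older peak was a kept one for 345 (63.2%, 59.1 to 67.1) and a lost one for 201. Within 1 kb the nearest older peak was a lost one for 82 of 222 gained peaks.

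Domains give a broader view of the same question. Older peaks separated by up to 10 kb were joined, which gave 250 older domains of at least 2 peaks. Gained peaks inside such a domain numbered 129, and 131 more lay within 10 kb of its edge. Together they made up 9.33% of the gained peaks (8.31 to 10.5) and were found at 110 of the 237 domains outside the chromosome 17 window. This share fell to 4.49% when gaps of up to 1 kb counted as touching and to 4.203% when the peaks of each list were first merged within 1 kb, and was 16.7% when older peaks were joined at 50 kb. A gained peak inside a domain may belong to a marked stretch that the caller had split before weaning, which was not tested. When the H3K9me3 peaks of both time points were joined at 10 kb, 639 gained peaks (22.9%) were in 267 stretches that held an older peak. Another 559 (20.1%) formed 188 stretches of 2 or more gained peaks with no other H3K9me3 peak, and 1584 (56.9%) were the only H3K9me3 peak of their stretch. Peaks that were alone were thus the majority. New groups held 559 gained peaks, against 639 in stretches with 1 or more older peaks and 260 in or at older domains of at least 2.

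The older domain with the most gained peaks was at chromosome 17, positions 25028801 to 25103346. It held 55 older peaks, of which 49 were kept, and 18 gained peaks lay in it or at its edge, 14 of them inside. A domain of 4 older peaks at chromosome 14, positions 769479 to 783744, had 10 gained peaks, 6 of them at the edge. The domain at chromosome 9, positions 7752775 to 7818023, had 58 older peaks and 9 gained ones, 8 of them inside. A second domain on chromosome 17, positions 25114459 to 25127198, had 7 gained peaks, 4 of them at the edge, and one at chromosome 16, positions 5904 to 18516, had 6, of which 5 were inside. Some gained peaks lay within 10 kb of both chromosome 17 domains and were counted at each. By these counts, gained peaks inside the domain outnumbered those at its edge in 3 of these 5 domains. The domains spanned 12.6 to 74.5 kb, against up to 10 kb of edge on either side, so the numbers inside and at the edge cover unequal lengths.

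Gained peaks also lay near each other. The nearest other gained peak was within 10 kb for 1032 of the 2786 (37.04%, 35.3 to 38.9) and at a median distance of 46.4 kb. Another H3K9me3 peak after weaning of any kind lay within 10 kb for 40.3% of the gained peaks (median 34.8 kb). For the 483 peaks after weaning that touched an older peak, under the same clauses on RNA pol II and the window, it was 78.5% (median 0.916 kb). Gained peaks were thus the less grouped of these sets. Grouping was more common beside older peaks. Another gained peak lay within 10 kb for 69.6% of those within 10 kb of an older peak, but for 20.1% of those more than 100 kb away. Joined at 10 kb, the gained peaks of the chromosomes formed 2073 islands, of which 1754 held a single peak. There were 47 islands of 5 or more, with 357 gained peaks (12.8%).

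Of the 47 larger islands, 29 had an older H3K9me3 peak within 10 kb, and 12 were more than 100 kb from any older peak. The largest, with 22 gained peaks in 68.25 kb at chromosome 17, positions 25052120 to 25120369, ran through the domain named above. In and within 10 kb of it there were 54 older H3K9me3 peaks. RNA pol II peaks there numbered 15 before and 28 after weaning as labelled, and H3K9ac peaks 2 and 10. The island of 20 at chromosome 1, positions 145300396 to 145381787, was of another kind. It spanned 81.4 kb, with its last peak 12.2 kb and its first 93.4 kb from an older peak, and had no peak of any other list within 10 kb. An island of 10 followed it at positions 145392890 to 145426289, with 1 older peak inside it.

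Other islands lay far from any older peak. The island of 19 gained peaks at chromosome 18, positions 43804185 to 43832499, spanned 28.3 kb, lay 539 kb from the nearest older peak and had a median peak width of 423 bp. The island of 17 at chromosome 24, positions 56917725 to 56959109, spanned 41.4 kb at 557 kb from older peaks. Neither had a peak of acetylation or RNA pol II within 10 kb. The same was true of 9 gained peaks within 8.92 kb on chromosome 7 (positions 44046431 to 44055346), of 8 on chromosome 28 (positions 11350888 to 11371862), 2336 kb from any older peak, and of 7 on chromosome 1 (positions 46184598 to 46192499). Of all 47 islands, 38 had no acetylation peak of either mark or time within 10 kb, and 4 had an H3K27ac peak before weaning there. Acetylation is absent within 10 kb of 78.2% of the genome and was absent within 10 kb of 78.2% of all gained peaks, so most places lack it at this range.

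**Figure D2:**
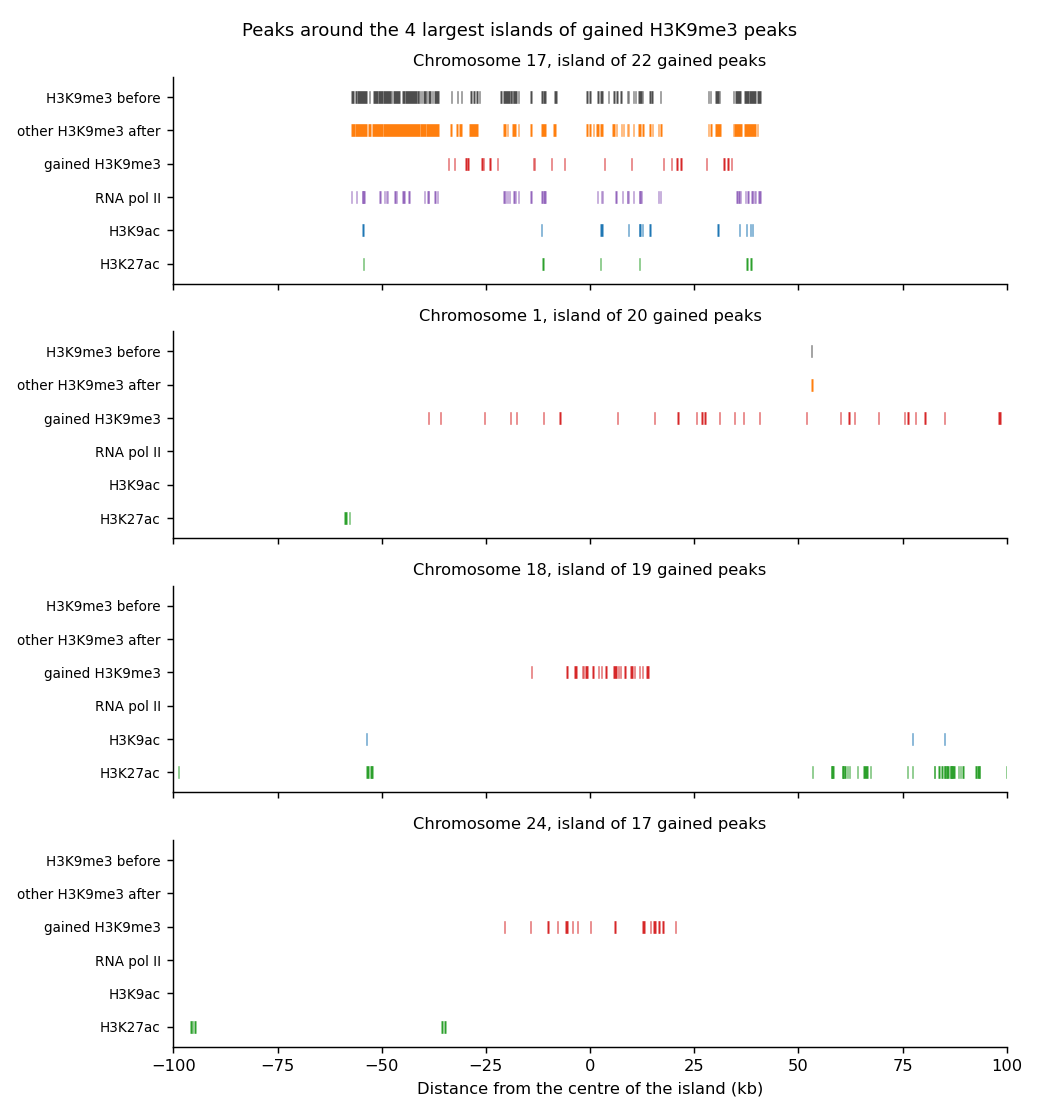
Peaks around the 4 largest islands of gained H3K9me3 peaks, by distance from the island's centre in kb (x axis), with a row for each kind of peak (RNA pol II, H3K9ac and H3K27ac before and after weaning drawn together). The 22 gained peaks on chromosome 17 lie among older H3K9me3 and RNA pol II peaks, whereas the islands of 20, 19 and 17 on chromosomes 1, 18 and 24 have no older peak among them.

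Width was the other measure the lists gave. Gained peaks were narrow, with a median of 221 bp, a middle range of 200 to 280 bp and a maximum of 2377 bp. The 483 H3K9me3 peaks that touched an older peak and met the same clauses on RNA pol II and the window, called kept here, had a median of 320 bp. The 1008 lost peaks had a median of 225.5 bp. The lowest width in the lists, 200 bp, was found for 32.2% of the gained peaks (30.5 to 34.0), for 7.87% of the kept ones (5.79 to 10.6) and for 26.7% of the lost ones (24.05 to 29.5). Widths of 500 bp or more were found for 80 gained peaks (2.87%) and for 90 of the kept peaks (18.6%). Gained and kept peaks were separated by contact with an older peak, and a wider peak touches more readily. The difference in width between them is therefore partly set by the rule.

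Gained peaks beside older ones were wider than those standing alone. The median was 242 bp (95% CI 234 to 251) within 10 kb of an older peak and 214 bp (209 to 217) more than 100 kb away. The share at the lowest width rose with distance, from 18.5% (13.9 to 24.1) within 1 kb to 25.8% (22.4 to 29.5) between 10 and 100 kb and 40.5% (37.3 to 43.8) beyond 1 Mb. Gained peaks far from older ones were thus the most often at the lowest width.

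**Figure D3:**
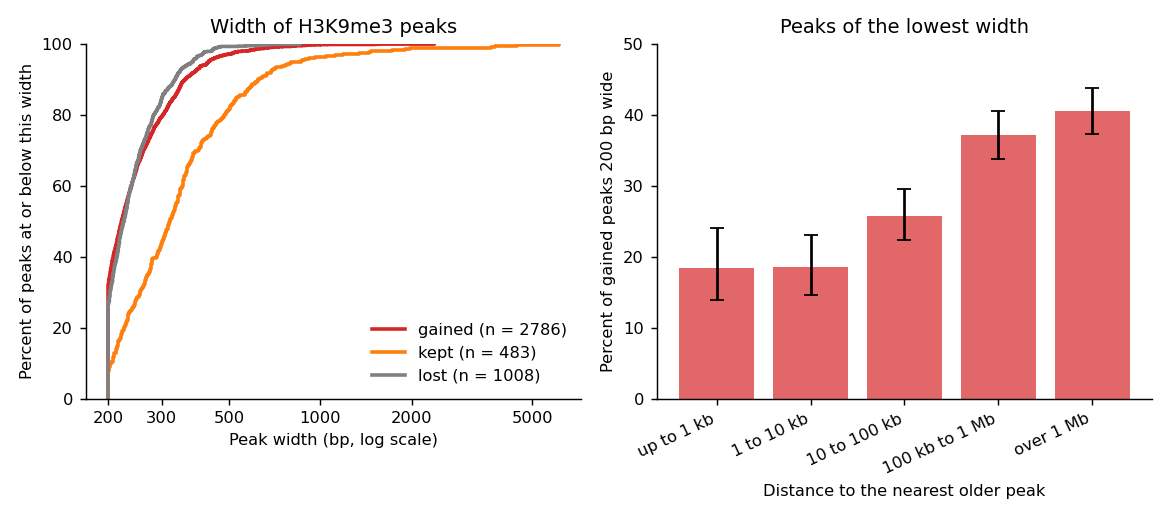
Left, cumulative percent of H3K9me3 peaks (y axis) at or below a width in bp (x axis, log scale) for gained, kept and lost peaks. Right, percent of gained peaks of the lowest width, 200 bp, by distance to the nearest older peak, with 95% Wilson intervals as bars, rising from 18.5% within 1 kb to 40.5% beyond 1 Mb.

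The widest gained peaks were not beside older ones. Of the 5 widest, 4 were on chromosome 17 in a single island of 8 gained peaks at positions 35642332 to 35656823. They were at positions 35646620 to 35648996 (2377 bp), 35644036 to 35645614 (1579 bp), 35642332 to 35643833 (1502 bp) and 35649580 to 35650636 (1057 bp). They lay between 66.2 and 73.0 kb from the nearest older peak, at least 294 kb from any H3K27ac peak and at least 385 kb from any RNA pol II peak. The other of the 5 was at chromosome 2, positions 70592786 to 70594316 (1531 bp). It was 408 kb from the nearest older peak and 382 kb from the nearest peak of any other list. In all, 6 gained peaks were 1000 bp or wider.

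Gained peaks were then placed along the chromosomes. They were present on chromosomes 1 to 29 and X, and in 1174 of 2675 bins of 1 Mb. A single gained peak was found in 680 of these bins, and 732 of the 1174 had no older peak. Density over the genome was 1.05 gained peaks per Mb. Chromosome 18 had the highest density, 3.65 per Mb (241 peaks), followed by chromosome 27 with 2.51 per Mb (110 peaks) and chromosome 14 with 2.19 per Mb (185 peaks). X had the lowest, 0.302 per Mb (45 peaks). The number of gained peaks for each older peak, with the chromosome 17 window left out, ranged from 0.5 on X to 3.26 on chromosome 24 and 3.24 on chromosome 11. Chromosomes with many older peaks did not always gain many, since chromosomes 9 and 19 had 1.65 and 1.81 older peaks per Mb but 0.870 and 1.05 gained ones.

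The end of chromosome 18 from 57 Mb onward, which in cattle is known for zinc finger gene clusters, held 145 of the 241 gained peaks of that chromosome and 54 of its 110 older peaks. Peaks of the lists reach to 66.0 Mb on this chromosome. On chromosome 23 between 25 and 30 Mb, the part known for the major histocompatibility complex, there were 4 gained peaks. That is near the density of the whole chromosome, 0.876 gained peaks per Mb. Cattle autosomes carry the centromere at the start of the sequence. The first 3 Mb of the autosomes held 306 gained peaks (11.2%, 10.1 to 12.4) and the last 3 Mb held 154 (5.63%, 4.83 to 6.56), where each is 3.47% of the autosomal length. Kept peaks had a similar share in the first 3 Mb (10.4%, 7.99 to 13.5), and lost peaks a lower one (5.80%, 4.48 to 7.48). In the last 3 Mb the kept peaks had a share of 2.77% (1.63 to 4.68) and the lost peaks one of 3.797% (2.76 to 5.21).

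The 5 fullest bins held 249 gained peaks (8.94%). The first Mb of chromosome 14 had 89, and 46 of them lay within 10 kb of an older peak and none more than 100 kb away. That bin had 37 H3K9me3 peaks before and 122 after weaning, and RNA pol II peaks there numbered 2 and 22 as labelled. The bin at 28000001 to 29000000 of chromosome 27 had 58 gained peaks, with 34 of them within 10 kb of its 15 older peaks. The bin at 59000001 to 60000000 of chromosome 18 had 39 gained peaks and 10 older ones. The bin at 145000001 to 146000000 of chromosome 1 had 33 gained peaks and 2 older ones. The bin at 74000001 to 75000000 of chromosome 8 had 30 gained peaks and 5 older ones. H3K27ac peaks in these 5 bins, in the same order, numbered 0, 17, 24, 80 and 23 before weaning and 2, 9, 9, 17 and 12 after, while the whole H3K27ac list went from 74249 to 30446 peaks.

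**Figure D4:**
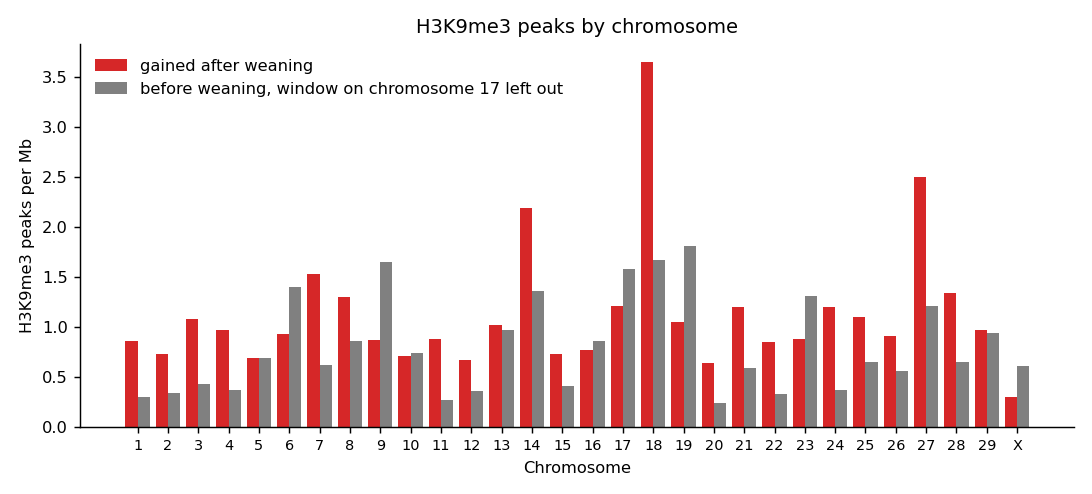
H3K9me3 peaks per Mb (y axis) on each chromosome (x axis), as gained peaks after weaning and as all peaks before weaning outside the chromosome 17 window. Gained peaks are densest on chromosomes 18, 27 and 14 (3.65, 2.51 and 2.19 per Mb) and sparsest on X (0.302 per Mb).

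The second question was whether gained H3K9me3 fell on acetylation that was lost after weaning. An acetylation peak was taken as lost when it was called before weaning and touched no peak of the same mark after weaning, which held for 13435 H3K9ac and 53552 H3K27ac peaks. Very few gained H3K9me3 peaks fell on them. Lost H3K9ac was touched by 5 of 2786 (0.179%, 95% CI 0.0767 to 0.419), against 0.408% of all H3K9me3 peaks after weaning. Lost H3K27ac was touched by 34 (1.22%, 0.875 to 1.70), against 0.911%. Lost acetylation of either mark was touched by 37 (1.33%, 0.965 to 1.82), against 1.27%, and lost peaks of both marks by 2. In the reverse direction, 0.0372% of the lost H3K9ac peaks and 0.0635% of the lost H3K27ac peaks touched a gained H3K9me3 peak.

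An even spread over the genome gives a scale for these shares. A peak of the median gained width would touch lost H3K27ac at 1.17% of all positions and lost H3K9ac at 0.263%, and both values lie within the intervals of the gained peaks. For lost H3K27ac the share differed by width. It was 2.34% (1.54 to 3.55) of the 897 gained peaks of 200 bp, where an even spread of peaks that wide gives 1.14%. It was 0.688% (0.403 to 1.17) of the 1889 wider ones, where an even spread at their median width gives 1.23%. Acetylation kept through weaning was touched less than under an even spread for H3K27ac, by 6 gained peaks (0.215%, 0.0987 to 0.469) against 0.721%, where 1.01% of all H3K9me3 peaks after weaning touched it. For kept H3K9ac it was 0 of 2786, which allows a share of up to 0.108%, against 0.0222% for an even spread and 2.40% of all H3K9me3 peaks after weaning. The rule had already removed peaks on RNA pol II, which lies on active promoters, and its part in these low counts was not tested. Acetylation that appeared after weaning was touched more than under an even spread, but less than by the whole list. Gained H3K27ac was touched by 10 (0.359%, 0.195 to 0.659) against 0.130%, and gained H3K9ac by 6 (0.215%, 0.0987 to 0.469) against 0.0214%. Of all 4170 H3K9me3 peaks after weaning, 4.77% touched gained H3K27ac and 4.51% gained H3K9ac. These include the peaks of the chromosome 17 window and those on RNA pol II, which the rule had left out. At 10 kb, 94 gained H3K9me3 peaks (3.37%) lay near gained H3K9ac, where 0.798% of the genome lies, and 177 (6.35%) near gained H3K27ac, where 3.95% lies. For the kept H3K9me3 peaks these shares were 27.3% and 27.1%. Of the 2786 gained peaks, 2731 (98.03%) touched no acetylation peak of either mark at either time, which is close to the 97.96% of an even spread. Over all H3K9me3 peaks after weaning it was 90.6%.

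Lost acetylation was also rarely touched by the kept H3K9me3 peaks. Lost H3K9ac was touched by 0 of 483, which allows a share of up to 0.621%, and lost H3K27ac by 1 (0.207%, 0.0366 to 1.16). Lost H3K9me3 peaks touched lost H3K27ac at 1.19% (0.682 to 2.07). The intervals of these shares overlap that of the gained peaks. At a wider range, 371 gained peaks (13.3%, 12.1 to 14.6) lay within 10 kb of lost H3K27ac, where 17.6% of the genome lies. For lost H3K9ac it was 140 (5.03%, 4.27 to 5.90), against 6.67% of the genome. The median distance of a gained peak to the nearest lost H3K27ac peak was 69.1 kb, and to the nearest lost H3K9ac peak 177 kb.

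**Figure D5:**
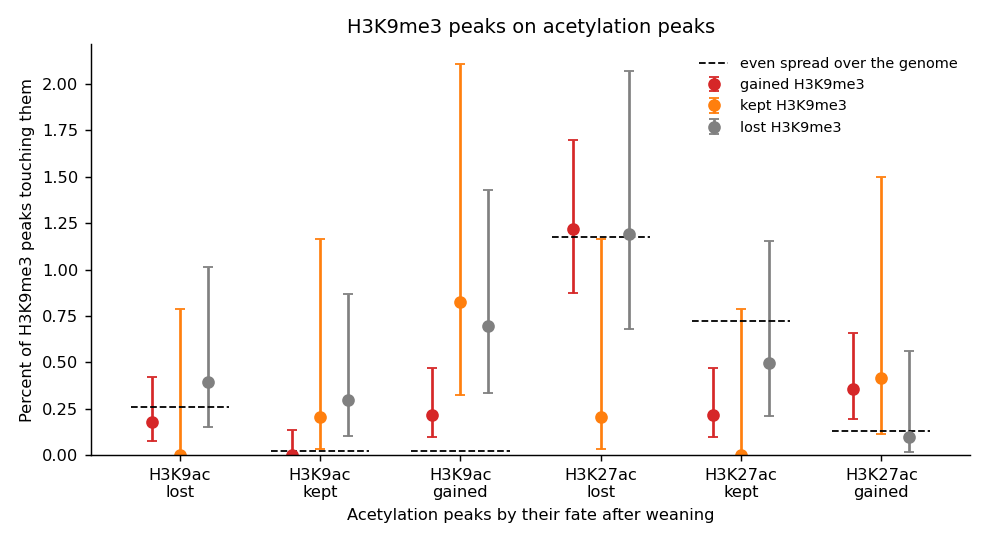
Percent of gained, kept and lost H3K9me3 peaks (y axis) that touch H3K9ac or H3K27ac peaks lost, kept or gained after weaning (x axis), with 95% Wilson intervals, and dashed lines for a peak of the median gained width placed evenly over the genome. The gained H3K9me3 peaks touch lost H3K27ac at 1.22%, beside the dashed line at 1.17%.

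The 37 gained peaks on lost acetylation are described by width and distance. Their widths ran from 200 to 435 bp with a median of 200 bp, and 23 of the 37 were 200 bp wide, against 32.2% of all gained peaks. More than 100 kb separated 31 of the 37 from any older H3K9me3 peak, as it did 59.5% of all gained peaks, and 2 lay within 10 kb, against 19.6%. They were spread over 18 chromosomes. Of the 1889 gained peaks wider than 200 bp, 14 (0.741%, 0.442 to 1.24) were on lost acetylation of either mark.

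The 2 gained peaks on lost acetylation of both marks were on chromosome 12 (positions 19673221 to 19673616) and chromosome 13 (positions 11218125 to 11218354). The first shared 226 bp with a lost H3K9ac peak and 97 bp with a lost H3K27ac peak, and H3K27ac after weaning was called 0.151 kb away. The second shared 162 and 181 bp with them, and the nearest acetylation after weaning was 247 kb away. On chromosome 12 the older H3K9me3 peak nearest to it was 2046 kb away, and on chromosome 13 it was 151 kb away. The widest gained peak on lost H3K27ac was at chromosome 7, positions 2366749 to 2367183 (435 bp), where it shared 261 bp with the lost peak. The nearest H3K27ac peak after weaning was 26.8 kb away. Of the 5 on lost H3K9ac, the one at chromosome 23, positions 24721564 to 24721763, lay wholly within H3K27ac peaks of both time points.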

How the data were processed

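The deposited lists give the chromosome, start and end position of each peak in bp, with no height, fold enrichment or p-value. The authors aligned 75 nt reads with BWA to UMD3.1.1 and kept unique alignments with fewer than 2 mismatches. Peaks were called with MACS2 at its default settings against 1 input library. A marked stretch could be called as 1 peak at 1 time point and as several at the other. The submitters' processing notes also name Trim Galore 0.4.1. Unique alignment leaves out reads from long repeats, where H3K9me3 is common. The lowest width was 200 bp in positions read as 1-based with both ends included. The lists hold no read depth, and the read totals in the study's supplement were not used here.

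Peaks touched when they shared at least 1 bp. Distance was the number of bases between peaks, measured to all older peaks. The genome was 2658.3 Mb, the summed highest peak ends on chromosomes 1 to 29 and X. Shares have 95% Wilson intervals (Python 3.11.15, SciPy 1.17.1), and intervals of medians come from order statistics. The limit for a count of 0 is 3 counts of the total. The overlap and distance functions were tested on simulated data. Regions named were the 5 widest gained peaks, the 5 closest peaks on each side of the rule, the 5 widest on lost acetylation and those on both marks, and the 5 fullest bins and older domains. The islands named and the parts of chromosomes 18 and 23 were chosen after values were seen. Alternatives changed the overlap, merging, joining, distance and width settings. The members and lists were chosen with earlier results of these data known. The reference table of genes was on another assembly, so the planned description of genes was not made.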

Additional observations from a re-analysis of the deposited data

Results flagged for a closer look

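Of the gained H3K9me3 peaks, 7 lay on the mitochondrial sequence, between positions 5965 and 15553, with widths of 200 to 653 bp. They stood out because the other 7 lists had 0 peaks there, and mitochondrial DNA carries no histones. They entered the count of 2786 but no distance to older peaks, and their source was not tested. They also entered the widths, the 188 stretches of gained peaks alone and the 1032 gained peaks with another within 10 kb.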

How the results depend on the processing

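Of 80 values recomputed under other settings, 47 stayed within 1.5 times the count or within the 95% interval and 33 moved. The number of gained peaks was between 1889 and 2968 under every setting. The share beside an older peak (19.6%) was 12.6% when a gap of up to 1 kb counted as touching, 24.4% when touching needed 50% of both peaks, 22.0% without 200 bp peaks in any list, 14.0% after merging within 1 kb and 22.3% with the chromosome 17 window. It was 17.5% without the 5 fullest bins, a setting chosen after seeing the data, and 14.6% and 34.5% with limits of 5 and 50 kb. The share standing alone (59.5%) was in the same order 64.7%, 56.0%, 56.5%, 64.8%, 57.5% and 65.0%, and 65.2% and 54.6% with limits of 50 and 200 kb. The share in or at older domains (9.33%) was 4.49%, 13.4%, 11.2%, 4.203% and 12.3% under the first 5 of these, and 7.86% and 16.7% with older peaks joined at 5 and 50 kb. Settings that merge peaks or count near ones as touching remove close peaks by construction. Without peaks of the lowest width in any list, 0.572% touched lost H3K27ac and 0.676% lost acetylation of either mark, and the median width was 251 bp. Leaving 200 bp peaks out of the list after weaning only, also chosen after seeing the data, gave 23.6% beside, 53.6% alone, 11.9% in or at older domains, 0.688% on lost H3K27ac, 0.741% on lost acetylation of either mark and a median width of 251 bp. Within 1 kb of lost acetylation of either mark lay 2.62%. No paired analysis was possible because each group holds 1 library and no result comes from a test. The lists hold no depth, so a peak absent before weaning may have been below the threshold of that library.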
